A study of Homo sapiens with 18 samples.

Results

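Intermediate filaments give a cell its mechanical strength, and the set of filament genes a cell uses is a classical sign of its type. A set of 10 is described here: the keratins KRT5, KRT6A, KRT7, KRT8, KRT14, KRT17, KRT18, KRT19 and KRT81, and vimentin (VIM). They are 10 of the 58302 genes in the expression tables, were picked by gene name, and all 10 were found. The choice was made partly because KRT5 in PC-9 cells and VIM in all 3 cell lines were already known to be higher after knockdown, so these 4 contrasts are given as values with no test.

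Total RNA was sequenced from 3 human lung cancer lines in which the tyrosine kinase SYK had been stably depleted with a lentiviral shRNA (shSYK), beside cells carrying a negative control shRNA (nc). EBC-1 carries MET amplification, and PC-9 and HCC827 carry an EGFR exon 19 deletion. Each line had 3 nc and 3 shSYK libraries, 18 in all, and no drug treatment is named in the labels. Knockdown rested on 1 shRNA clone and was compared with a control shRNA that the labels do not identify further, so an effect of the clone other than on SYK cannot be told apart from the loss of SYK. Nothing says whether the libraries of a group came from separate cultures, so the p-values measure the spread between libraries, which may be technical.

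Keratins form obligate pairs of a type I chain (here KRT14, KRT17, KRT18 and KRT19) with a type II chain (KRT5, KRT6A, KRT7, KRT8 and KRT81). KRT8 and KRT18 are the pair of simple epithelia, joined in lung and other glandular epithelia by KRT7 and KRT19. KRT5 with KRT14 marks basal and squamous cells, KRT6A and KRT17 are keratins of injured or activated stratified epithelium, and KRT81 belongs to the hard keratins of hair. Vimentin forms homopolymers in mesenchymal cells, and epithelial cells that take on mesenchymal traits often gain it. The comparison of shSYK with nc cells asks how the filament composition of the lines differs when SYK is low.

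Levels are FPKM, fragments scaled by gene length and library size. The length used was 6881 bases for KRT8, 4093 for KRT7, 3218 for KRT18 and 2336 for KRT19. Their coding sequences have 1449, 1407, 1290 and 1200 bases, and how the length was set is not given. Levels of different genes set side by side, their shares and their ratios depend on these lengths. Reads on genes numbered 7920099 to 15729103 per library (median 11651793), and a level of 3 reads, taken as the floor, corresponds to 0.0267 to 0.215 FPKM for these genes, depending on the library and gene length. SYK itself was lower in the shSYK libraries of every line, from 14.2 ± 1.07 to 7.43 ± 0.189 FPKM in EBC-1, from 6.51 ± 0.698 to 2.09 ± 0.389 in PC-9 and from 9.08 ± 0.649 to 2.99 ± 0.472 in HCC827 (mean ± SD, n = 3). In PC-9 the nc libraries differed in scale: FPKM values summed to 342216 in replicate 1, 274907 in replicate 2 and 301347 in replicate 3. The PC-9 shSYK libraries lay between, at 306921 to 316917. Main PC-9 results are also given without nc replicate 1, and those that turned without nc replicate 2 are named. The epithelial markers EPCAM and CDH1 summed to 127 to 248.6 FPKM in every library. CDH1 fell in EBC-1 (log2 fold change -0.30, adjusted p = 0.0091, limma) and in HCC827 (-0.44, adjusted p = 0.0031, limma). In PC-9 its log2 fold change was -0.28 (adjusted p = 0.24, limma). EPCAM passed in no line (adjusted p = 0.063 to 0.86, limma). The 4 leukocyte markers summed to at most 1.67 FPKM and the 5 fibroblast markers to at most 8.37 FPKM, of which most was COL1A1, while COL1A2, DCN and LUM averaged under 0.1 FPKM in every group. The fibroblast marker PDGFRB stood at 0.462 ± 0.0941 FPKM in EBC-1 nc and 0.117 ± 0.0272 FPKM in EBC-1 shSYK cells and also averaged under 0.1 FPKM elsewhere. Both endothelial markers exceeded 1 FPKM in PC-9 alone, where PECAM1 fell from 13.4 ± 0.903 to 4.98 ± 0.601 FPKM (adjusted p = 0.0049, limma) and CDH5 read 2.42 ± 0.228 and 2.38 ± 0.117 FPKM (log2 fold change -0.02, adjusted p = 0.97, limma). The part of these markers in the results was not tested. EBC-1 is known as a squamous carcinoma line. Of the 2 squamous regulators listed, TP63 had 0 to 16 reads in its libraries, and SOX2 stood at 9.85 ± 0.602 FPKM in its nc cells but at 22.3 ± 4.36 FPKM in the adenocarcinoma line HCC827. In turn the lung adenocarcinoma markers NKX2-1 and NAPSA summed to 85.3 to 143 FPKM in HCC827 but to only 1.24 to 2.61 FPKM in the adenocarcinoma line PC-9.

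All 3 lines were built on the same 4 simple-type keratins. In nc cells KRT19 stood at 2077 ± 635 FPKM in PC-9, 1922 ± 157 in HCC827 and 713 ± 89.3 in EBC-1. KRT7 reached 1262 ± 38.0 FPKM in HCC827, 894 ± 235 in PC-9 and 763 ± 26.2 in EBC-1, where its FPKM was level with that of KRT19 within the spread. KRT8 stood at 757 ± 205 FPKM in PC-9 and 654 ± 25.9 in HCC827, which overlapped, and at 281 ± 38.0 in EBC-1. KRT18 followed the same order, with 613 ± 177, 537 ± 23.2 and 144 ± 7.12 FPKM. The tables of the 3 lines were made separately and these levels were not tested against each other. KRT19 ranked 6 among 19847 protein-coding genes in PC-9 nc cells, 11 in HCC827 and 31 in EBC-1.

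The remaining genes were far lower and differed by line. KRT5 was found in PC-9 alone, at 20.7 ± 2.92 FPKM in nc cells, and had 0 reads in all 12 libraries of EBC-1 and HCC827. KRT6A was a gene of HCC827, at 12.2 ± 0.517 FPKM, with 0.723 ± 0.225 in PC-9 and 0 reads in EBC-1. KRT81 was highest in EBC-1 at 24.3 ± 2.32 FPKM, followed by PC-9 at 11.2 ± 2.54 and HCC827 at 1.85 ± 0.572. KRT14, the partner of KRT5, had at most 5 reads in any library, and KRT17 at most 26. VIM was low in nc cells of every line, at 3.65 ± 0.0992 FPKM for EBC-1, then 1.81 ± 0.431 for HCC827 and 0.857 ± 0.0176 for PC-9.

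**Figure D1:**
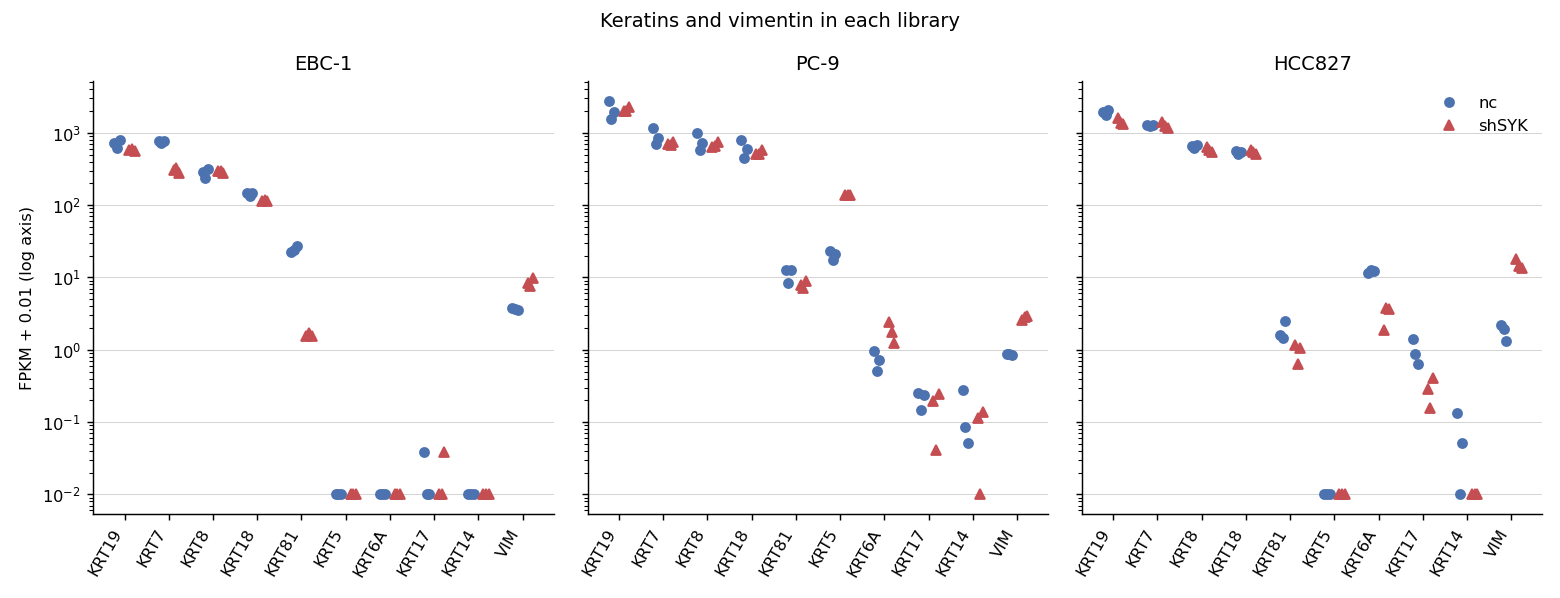
FPKM of the 10 genes in each library, on a log axis after adding 0.01 FPKM so that zeros can be drawn at the bottom, with blue circles for nc and red triangles for shSYK libraries. KRT19, KRT7, KRT8 and KRT18 lie above 100 FPKM in every library, KRT5 lies above the bottom in PC-9 alone, and VIM is higher in the shSYK libraries of each line.

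In EBC-1, SYK knockdown went with a fall of KRT7 and KRT81 beside nearly level KRT8. Of the 10 genes 5 keratins could be tested (mean FPKM of at least 1 in the line, limma on log2(FPKM + 1)), and 4 of them, KRT7, KRT18, KRT19 and KRT81, fell with an adjusted p under 0.05. Among all 12430 tested genes 21.6% fell and 23.1% rose. The median log2 fold change of the 5 was -0.31, against 0.01 over all tested genes.

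KRT81 was the gene that fell furthest in EBC-1. It stood at 22.2, 23.9 and 26.8 FPKM in the nc libraries and at 1.56, 1.68 and 1.52 FPKM in the shSYK libraries. The groups did not overlap, as for 27.2% of all tested genes in this direction, and the shSYK mean was 6.54% of the nc mean (log2 fold change -3.28, SE 0.08, adjusted p = 6.4e-06, limma). The reads behind it were 582 to 609 per nc library and 38 to 49 per shSYK library, so that both levels are above the floor. In bulk RNA, fewer cells with a transcript and less of it per cell cannot be told apart.

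KRT81 lies on the minus strand of chromosome 12 (hg38 chr12:52285913-52291534) beside a run of hair keratins, and 44.6% of its 50-base words also occur in another gene, 38.4% in KRT86. How reads with more than one match were counted is not given in the sources used here, and the part of shared reads in the values of KRT81 was not tested. Their coding sequences match at 94.2% of the 1454 aligned bases. To show where the genes can be told apart, a stretch of the coding sequence with the most differences is printed from hg38, 5′ to 3′ on the coding strand, with the bases that differ in capitals. The KRT81 stretch is chr12:52286403-52286432 (minus strand) and the KRT86 stretch is chr12:52308468-52308497 (plus strand).
KRT81: AgtGAcTGGcagTgtcTgCagcgCTccGTg
KRT86: TgtCTcCACcagAgtcAgTagcgTCccCAg
KRT86 itself also fell in EBC-1, from 2.58 ± 0.526 to 0.675 ± 0.0818 FPKM (log2 fold change -1.09, SE 0.13, adjusted p = 0.00081, limma). Its level in nc cells was well under that of KRT81.

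KRT7 followed at a much higher level. The nc libraries held 780.4, 733 and 775 FPKM and the shSYK libraries 303, 326 and 276 FPKM, with no overlap. The mean fell to 39.5% of the nc mean (log2 fold change -1.34, SE 0.08, adjusted p = 6.4e-05, limma). In rank among protein-coding genes KRT7 went from 26 to 71, while KRT19 went from 31 to 28.

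The 2 type I partners moved little. KRT18 stood at 146, 136 and 149 FPKM in nc and 113, 119 and 114 FPKM in shSYK libraries, which did not overlap (log2 fold change -0.31, SE 0.06, adjusted p = 0.0073, limma). With the spread estimated over all 18 libraries the KRT18 call was lost (adjusted p = 0.091, limma). KRT19 fell from 713 ± 89.3 to 581 ± 16.0 FPKM (log2 fold change -0.29, SE 0.10, adjusted p = 0.043, limma). That call on KRT19 was lost in 13 of 16 alternative settings, among them the omission of nc replicate 1, nc replicate 3 or any shSYK replicate (adjusted p = 0.078 to 0.13, limma), and the direction turned under quantile normalization, with a log2 fold change of 0.08. KRT8 had 291, 239 and 312 FPKM in nc and 293, 294 and 275 FPKM in shSYK libraries, overlapping (log2 fold change 0.04, 95% interval -0.20 to 0.28, adjusted p = 0.75, limma). Under quantile normalization its fold change passed the test at 0.22, and its sign turned when the gene length trend was removed or nc replicate 2 was left out.

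**Figure D2:**
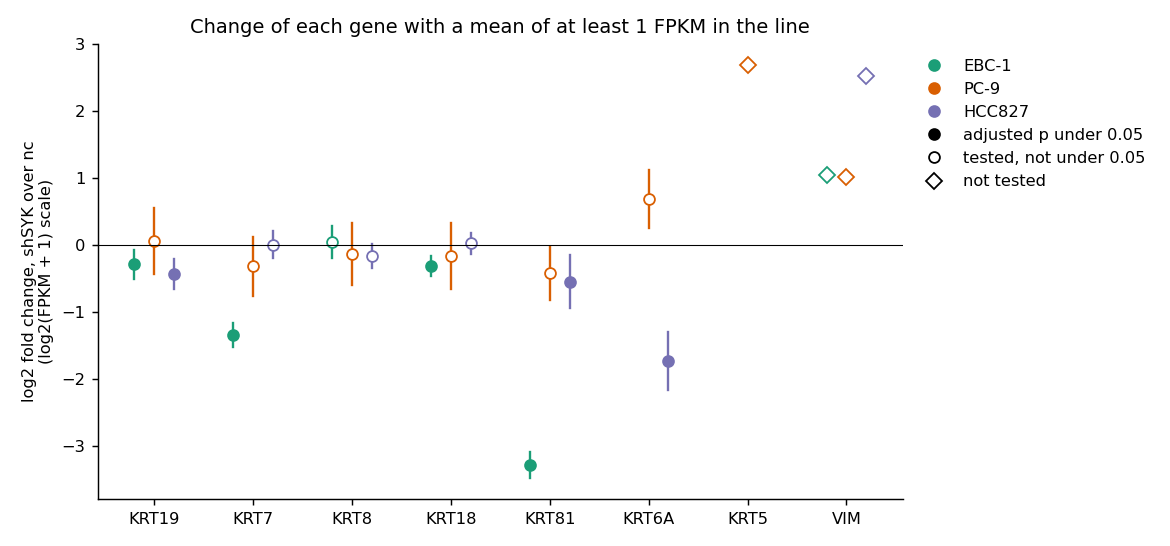
Log2 fold change of shSYK over nc on the log2(FPKM + 1) scale for each gene with a mean of at least 1 FPKM in the line, with bars for the 95% interval from limma. Filled circles passed an adjusted p of 0.05, open circles did not, and open diamonds (VIM in each line, KRT5 in PC-9) have no interval because they were used to choose the genes. KRT81 in EBC-1, at -3.28, lies lowest, and KRT6A lies on opposite sides of 0 in PC-9 and HCC827.

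In HCC827, KRT6A, KRT19 and KRT81 fell while KRT7 and KRT18 stayed near 0 change. Of the 6 keratins tested 3 fell and none rose, where 20.7% of all 11999 tested genes fell and 17.2% rose. The median log2 fold change of the 6 was -0.30, against -0.01 over all tested genes.

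KRT6A, a type II keratin of activated squamous epithelium, had 11.6, 12.5 and 12.4 FPKM in the nc libraries. The shSYK libraries had 1.85, 3.76 and 3.63 FPKM, with no overlap, as for 27.6% of all tested genes in this direction (log2 fold change -1.73, SE 0.18, adjusted p = 0.00065, limma). The shSYK mean was 25.3% of the nc mean. KRT19 had 1928, 1762 and 2076 FPKM in nc and 1591, 1349 and 1332 FPKM in shSYK libraries, also apart (log2 fold change -0.43, SE 0.10, adjusted p = 0.012, limma). This KRT19 call was lost without a filter on low genes and with all 18 libraries in the fit (adjusted p = 0.12 and 0.056, limma). KRT81 went from 1.85 ± 0.572 to 0.940 ± 0.270 FPKM on 22 to 52 and 13 to 22 reads (log2 fold change -0.54, SE 0.17, adjusted p = 0.039, limma). Leaving out nc replicate 1, nc replicate 3, shSYK replicate 2 or shSYK replicate 3 ended that call, with adjusted p = 0.058, 0.099, 0.12 and 0.073 from limma, as did dropping the filter (0.12).

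KRT7 showed no change that could be called, with 1262, 1224 and 1299.8 FPKM in nc and 1416, 1255 and 1152 FPKM in shSYK libraries. Its log2 fold change was 0.01 with a 95% interval of -0.19 to 0.21 (adjusted p = 0.94, limma). KRT18 had a log2 fold change of 0.03 with a 95% interval of -0.13 to 0.18 (adjusted p = 0.77, limma), and KRT8 one of -0.16 with a 95% interval of -0.34 to 0.02 (adjusted p = 0.13, limma), which passed only without shSYK replicate 1 (adjusted p = 0.043, limma). The signs of KRT7 and KRT18 turned when nc replicate 2 or shSYK replicate 1 was left out. KRT17 was under the level required for a test, with 26, 26 and 17 reads in nc and 7, 4 and 11 reads in shSYK libraries. The groups did not overlap, but reads assigned to KRT17 pseudogenes, 3 to 40 per HCC827 library, came to 42.9% to 153.8% of the reads of KRT17 itself.

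In PC-9 none of the 6 tested keratins passed the test, in a line where 1.41% of 12089 tested genes fell and 0.678% rose. Limma-voom on recovered reads also called 0, and at an unadjusted p under 0.05 from limma 2 of the 6 passed, KRT6A and KRT81. KRT6A had 0.950, 0.499 and 0.721 FPKM in nc and 2.42, 1.73 and 1.25 FPKM in shSYK libraries, which did not overlap, as for 11.4% of all tested genes in this direction (log2 fold change 0.69, SE 0.18, adjusted p = 0.13, limma). It rested on 17 to 23 and 37 to 89 reads. KRT81 had 12.8, 8.25 and 12.5 FPKM in nc and 7.89, 7.10 and 8.94 FPKM in shSYK libraries, overlapping (log2 fold change -0.42, 95% interval -0.82 to -0.02, adjusted p = 0.30, limma). It passed only without nc replicate 2 (adjusted p = 0.034, limma), and KRT6A only when the spread was estimated over all 18 libraries (adjusted p = 0.015, limma).

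The 4 abundant keratins of PC-9 varied more among nc libraries than between the groups. KRT19 ranged from 1537 to 2777 FPKM in nc and from 2023 to 2279 FPKM in shSYK libraries, and KRT7 from 690.2 to 1151 and from 671 to 744 FPKM. The highest nc value came from nc replicate 1 and the lowest from nc replicate 2 for each of KRT7, KRT8, KRT18 and KRT19. Without nc replicate 1 the log2 fold changes were -0.12 for KRT7, 0.07 for KRT8, 0.05 for KRT18 and 0.29 for KRT19, and again none passed. With all libraries they were -0.32, -0.13, -0.16 and 0.06, so that the signs of KRT8 and KRT18 depend on nc replicate 1. The sign of KRT19 turned without nc replicate 2, to -0.13.

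KRT5 was used to choose the genes and is described only. It had 23.5, 17.6 and 20.9 FPKM in the PC-9 nc libraries (833 to 933 reads) and 136, 139.8 and 139 FPKM in the shSYK libraries (6058 to 7581 reads). The shSYK mean was 6.70-fold the nc mean, and KRT5 went from rank 2309 to rank 287 among protein-coding genes. Its usual type I partner KRT14 stayed near 0, with 5, 2 and 1 reads in nc and 3, 0 and 3 reads in shSYK libraries. Of the 50-base words of KRT5 2.27% occur in another gene, 1.95% in KRT6C, 1.88% in KRT6B and 1.49% in KRT6A.

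**Figure D3:**
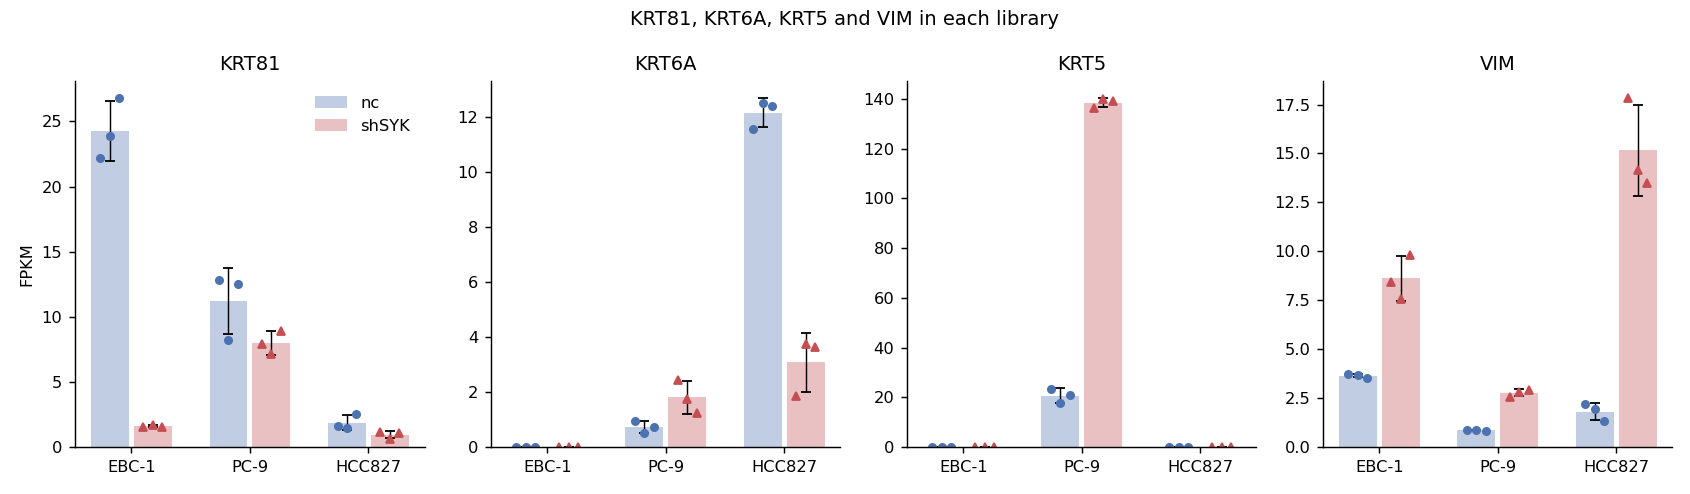
FPKM of KRT81, KRT6A, KRT5 and VIM by line, with bars for the mean of 3 libraries, error bars for the SD and points for single libraries (nc blue, shSYK red). KRT81 is lower after knockdown most clearly in EBC-1, KRT6A in HCC827, KRT5 is seen in PC-9 alone, and VIM is higher in all 3 lines, up to a mean of 15.2 FPKM in HCC827.

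KRT6A shares 32.2% of its 50-base words with other genes, 29.2% with KRT6C, 21.7% with KRT6B and 2.19% with KRT5. Its reads may be mixed with theirs where those genes are active. In HCC827 KRT6B had 0 reads in all 6 libraries. In PC-9 KRT6B was the more abundant, rising from 9.53 ± 1.38 to 26.3 ± 1.80 FPKM, and the KRT6A values of that line moved with it. KRT5 was higher after knockdown there too, with 6058 to 7581 reads per shSYK library against 37 to 89 of KRT6A. The part of shared reads was not tested. The coding sequences of KRT6A and KRT6B match at 97.5% of 1692 bases. The stretch of 30 bases with the most differences is shown from hg38, 5′ to 3′ on the coding strand (minus), with differing bases in capitals, KRT6A at chr12:52491555-52491584 and KRT6B at chr12:52450439-52450468.
KRT6A: acggggCcgCctggactcAgagctCagaGG
KRT6B: acggggTcgTctggactcGgagctGagaAA
Only 6 of the 30 bases differ even here.

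VIM, likewise used in the choice, was higher in each shSYK library than in any nc library of its line. Such a separation upwards was seen in 29.7% of all tested genes in EBC-1, in 24.7% of those in HCC827 and in 11.4% of those in PC-9. It had 3.71, 3.70 and 3.53 FPKM in EBC-1 nc and 8.45, 7.56 and 9.84 FPKM in EBC-1 shSYK libraries, a mean 2.36-fold that of nc. PC-9 had 0.867, 0.867 and 0.837 FPKM in nc and 2.56, 2.79 and 2.92 FPKM in shSYK libraries, 3.22-fold that of nc, and HCC827 had 2.17, 1.91 and 1.33 and then 17.8, 14.2 and 13.5 FPKM, 8.39-fold that of nc. VIM stayed far under the 4 abundant keratins in each line but above KRT81 in shSYK cells of EBC-1 and HCC827 and above KRT6A in those of PC-9 and HCC827, by their means. Its rank among protein-coding genes went from 7240 to 4703 in EBC-1, from 10767 to 8162 in PC-9 and from 9147 to 2959 in HCC827. Of the 50-base words of VIM 20.7% occur elsewhere, 11.3% in the antisense gene VIM-AS1, and without a stated strand setting reads of the pair cannot be told apart. Likewise KRT8 and KRT18 overlap on opposite strands of chromosome 12, and 13.3% of the words of KRT18 lie in KRT8 in antisense.

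Promoters of 300 bases (RefSeq, GRCh38.p14) were at hand for VIM, KRT5 and KRT8. They were searched on both strands for the GC box GGGCGG, the AP-1 motif TGANTCA and the TATA motif TATAAA, which occur in 45.0%, 7.71% and 11.5% of 35116 promoters of that length. The single match was a GC box in the VIM promoter, 46 to 41 bases before the start, shown in capitals within its flanks at chr10:17228185-17228210 (plus strand).
VIM: agagggacggGGGCGGggactctgca
A match describes letters only and says nothing of what binds there. The KRT8 promoter searched, chr12:52926420-52926719, lies inside the annotated gene (chr12:52897187-52949954, minus strand), which has 18 transcripts. Which start these cells use was not tested.

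Whether the lines differed in response was tested for the genes that the choice had not used, in 1 fit over the 18 libraries. KRT7 fell further in EBC-1 than in PC-9 (difference of log2 fold changes -1.02, SE 0.19, adjusted p = 0.0019, limma) and than in HCC827 (-1.35, SE 0.19, adjusted p = 0.00014, limma). KRT81 fell further in EBC-1 than in PC-9 (-2.86, SE 0.23, adjusted p = 6.8e-07, limma) and than in HCC827 (-2.74, SE 0.23, adjusted p = 7.1e-07, limma). These were 2 of 5 genes for EBC-1 against PC-9, where 19.1% of 13892 genes differed in either direction, and 2 of 5 for EBC-1 against HCC827, where 21.8% of 13738 did. KRT6A was left out of both comparisons because EBC-1 had 0 reads of it. It was the single gene of 6 that differed between PC-9 and HCC827 (2.42, SE 0.24, adjusted p = 1.4e-05, limma), where 8.50% of 13494 genes did. KRT8, KRT18 and KRT19 passed in none of the 3 comparisons.

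As shares of the summed FPKM of the 10 genes, KRT7 and KRT19 shifted against each other in each line, and the small parts differed in each line. The sum itself went from 1928 ± 160 to 1296 ± 51.3 FPKM in EBC-1, from 4375 ± 1257 to 4172 ± 280 in PC-9 and from 4392 ± 235 to 3851 ± 356 in HCC827. In EBC-1 KRT7 took 39.7% ± 2.11 of the sum in nc and 23.2% ± 1.02 in shSYK libraries. There KRT19 went from 36.9% ± 1.64 to 44.8% ± 0.688, and KRT8 with KRT18 from 22.0% ± 0.540 to 31.1% ± 0.367, each without overlap. Shares are tied to each other, so that a fall of KRT7 alone raises the rest.

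In PC-9 the basal and activation keratins KRT5, KRT6A, KRT14 and KRT17 together held 0.509% ± 0.0664 of the sum in nc and 3.38% ± 0.217 in shSYK libraries, nearly all of it KRT5. KRT7 went from 20.5% ± 0.509 to 16.9% ± 0.354, KRT19 from 47.3% ± 0.876 to 50.5% ± 0.156, and KRT8 with KRT18 from 31.4% ± 0.485 to 29.0% ± 0.362. In HCC827 the share of KRT5, KRT6A, KRT14 and KRT17 went the other way, from 0.301% ± 0.0206 to 0.0891% ± 0.0342, nearly all of it KRT6A. In HCC827 KRT19 went from 43.7% ± 1.25 to 37.0% ± 0.816 of the sum and KRT7 from 28.8% ± 0.705 to 33.1% ± 0.620. VIM took 0.190% ± 0.0199 and then 0.668% ± 0.115 in EBC-1, 0.0207% ± 0.00569 and 0.0662% ± 0.00316 in PC-9, and 0.0414% ± 0.0109 and 0.392% ± 0.0236 in HCC827. The VIM share stayed under 1% in all 18 libraries.

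**Figure D4:**
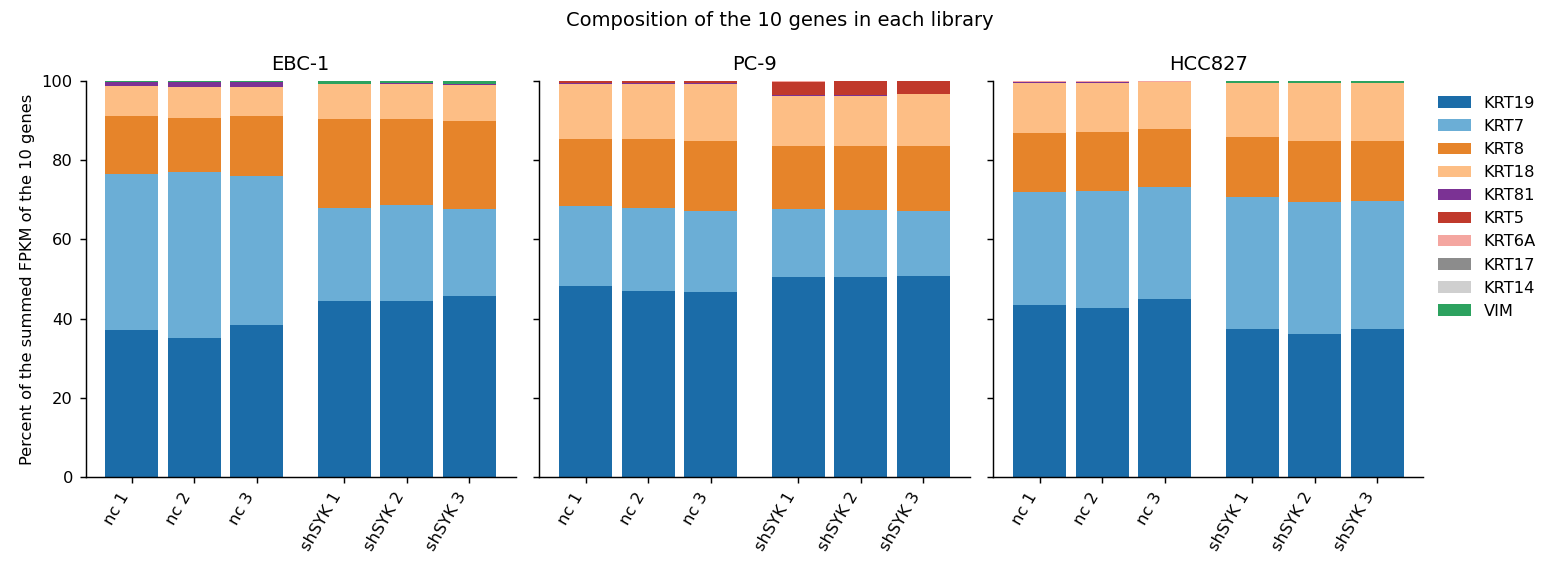
Share of each gene in the summed FPKM of the 10 genes, 1 bar per library, with nc libraries on the left and shSYK libraries on the right of each panel. In EBC-1 the KRT7 part shrinks from 39.7% to 23.2%, in PC-9 a KRT5 part appears at the top, and VIM stays a thin band under 1% in each library.

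The balance of type II to type I keratins went down in EBC-1 and PC-9 and up in HCC827. Summed over the 9 keratins the ratio was 1.25 ± 0.07005 in EBC-1 nc and 0.848 ± 0.0331 in shSYK libraries, and in HCC827 it went from 0.786 ± 0.0297 to 0.944 ± 0.0247. In PC-9 it was 0.630 ± 0.0226 and 0.578 ± 0.00890. The groups did not overlap in any line. On recovered reads the same ratio was 2.41 and 1.86 in EBC-1, 1.32 and 1.23 in PC-9 and 1.56 and 1.82 in HCC827, so its level depends on gene length. KRT7 and KRT19 were by mean the largest parts of the type II and type I sums, so their ratio largely repeats this one. The KRT7 to KRT19 ratio went from 1.08 ± 0.106 to 0.519 ± 0.0300 in EBC-1, from 0.434 ± 0.0176 to 0.334 ± 0.00803 in PC-9 and from 0.658 ± 0.0343 to 0.895 ± 0.0330 in HCC827. Within a library such a ratio is free of the scale of that library, and PC-9 nc replicate 1 had 0.415 in it, against 0.439 and 0.449 in the other nc libraries. The KRT8 to KRT18 ratio went from 1.95 ± 0.172 to 2.49 ± 0.0920 in EBC-1 and from 1.22 ± 0.0348 to 1.07 ± 0.0292 in HCC827, and read 1.24 ± 0.0332 and 1.27 ± 0.00966 in PC-9.

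Beyond the 10 genes, 46 other keratins were listed, of which 14 reached a mean of 1 FPKM in some group. KRT80, a keratin of differentiating epithelia, fell in each line. It went from 55.9 ± 1.77 to 26.2 ± 3.15 FPKM in EBC-1 (log2 fold change -1.07, adjusted p = 0.00027), from 78.3 ± 15.0 to 39.7 ± 2.92 in PC-9 (-0.95, adjusted p = 0.031) and from 92.0 ± 2.19 to 58.4 ± 7.34 in HCC827 (-0.65, adjusted p = 0.0017, all limma). The PC-9 call on KRT80 was lost in 5 of 16 alternatives, 4 of them with nc replicate 3 or one of the shSYK libraries left out (adjusted p = 0.13 to 0.17, limma). Of the other keratins 2 of 4 tested fell in EBC-1 (KRT80 and KRT86), where 21.6% of all tested genes fell, and 2 rose besides with the libraries rescaled to an equal sum. In PC-9 3 of 13 rose and KRT80 fell, against 0.678% and 1.41% of all tested genes. In HCC827 1 of 6 rose and 3 fell, against 17.2% and 20.7%.

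In PC-9 the type II keratins KRT6B and KRT3, the latter known from cornea, rose beside KRT5. KRT6B had a log2 fold change of 1.38 (SE 0.12, adjusted p = 0.0052, limma), and KRT3 went from 1.56 ± 0.457 to 7.43 ± 1.04 FPKM (1.73, SE 0.16, adjusted p = 0.0058, limma). Both calls were lost without shSYK replicate 1 (adjusted p = 0.064, limma), and that of KRT6B also without nc replicate 3 (adjusted p = 0.0503, limma). PC-9 was also the line with KRT13 (161 FPKM in nc), KRT15 (63.1), KRT23 (45.1) and KRT16 (30.8), none of which passed the test. In HCC827 KRT20, a keratin of intestinal epithelium, fell from 14.4 ± 2.36 to 5.78 ± 0.636 FPKM (log2 fold change -1.18, SE 0.12, adjusted p = 0.00059, limma). KRT4, a keratin of mucosal linings, rose there from 3.13 ± 1.14 to 5.58 ± 0.827 FPKM (0.70, SE 0.20, adjusted p = 0.026, limma), a call lost without a filter (adjusted p = 0.097, limma) and without nc replicate 2, shSYK replicate 2 or shSYK replicate 3 (0.055 to 0.088).

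**Figure D5:**
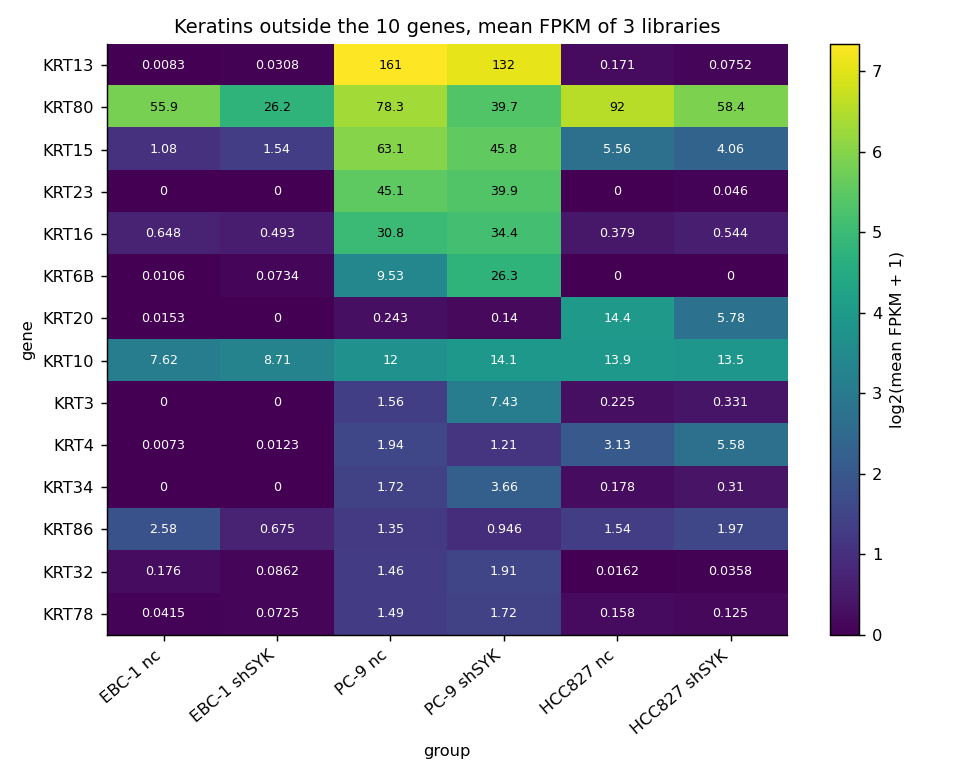
Mean FPKM of 3 libraries for the 14 keratins outside the 10 genes that reached 1 FPKM in some group, with numbers in the cells and colour for log2(mean FPKM + 1). KRT80 is present in all 3 lines and lower in shSYK cells, and KRT13, KRT15, KRT16, KRT23 and KRT6B are high in PC-9 alone.

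Of 15 other intermediate filament genes 5 to 7 were tested in each line. In EBC-1 1 of 5 fell, where 21.6% of all tested genes fell, and 2 rose besides with the libraries rescaled to an equal sum. In HCC827 1 of 5 rose and 1 fell, against 17.2% and 20.7% of all tested genes. The progenitor filament gene NES fell in EBC-1 from 1.80 ± 0.552 to 0.732 ± 0.0958 FPKM (log2 fold change -0.67, adjusted p = 0.013, limma), which missed the threshold without a filter (adjusted p = 0.051, limma). In HCC827 the lamin gene LMNA, which builds the nuclear lamina, fell from 102 ± 7.26 to 67.9 ± 2.15 FPKM (-0.58, adjusted p = 0.00079, limma), and the neuronal filament gene INA rose from 0.911 ± 0.249 to 2.17 ± 0.429 FPKM (0.73, adjusted p = 0.0062, limma). None of 7 passed in PC-9, where 0.678% of all tested genes rose and 1.41% fell, and 1 of the 7 fell with the libraries rescaled to an equal sum. NES went there from 6.15 ± 1.18 to 3.40 ± 0.282 FPKM (-0.69, adjusted p = 0.052, limma). The muscle and glial filament genes DES and GFAP stayed under 0.5 FPKM on average in every group.

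Keratins are tied to desmosomes and hemidesmosomes by linker proteins, of which 14 genes were listed and 12 tested in each line. In EBC-1 5 rose and 1 fell, where 23.1% of all tested genes rose and 21.6% fell. In PC-9 2 fell, against 1.41% of all tested genes, and in HCC827 2 rose and 5 fell, against 17.2% and 20.7%. In EBC-1 dystonin (DST) rose from 4.67 ± 1.498 to 10.4 ± 1.19 FPKM (log2 fold change 1.04, adjusted p = 0.0032, limma) and desmoplakin (DSP) from 7.40 ± 0.776 to 12.5 ± 0.776 FPKM (0.68, adjusted p = 0.0011, limma). Plakoglobin (JUP) fell in EBC-1 (-0.63, adjusted p = 0.0080, limma) and in HCC827 (-0.66, adjusted p = 0.0024, limma). Periplakin (PPL) fell in PC-9 from 34.6 ± 1.60 to 20.04 ± 0.608 FPKM (-0.76, adjusted p = 0.013, limma) and in HCC827 (-0.48, adjusted p = 0.0012, limma). Epiplakin (EPPK1) fell in PC-9 (-0.63, adjusted p = 0.045, limma). The laminin receptor chain ITGA6 rose in HCC827 (0.46, adjusted p = 0.0017, limma) and in EBC-1 (0.54, adjusted p = 0.0015, limma). In PC-9 the calls on PPL and EPPK1 were lost without nc replicate 3 or any shSYK replicate (adjusted p = 0.097 to 0.22, limma), and that on EPPK1 also without a filter, with the replicate block and with the gene length trend removed (0.13, 0.055 and 0.13).

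Of 18 transcription factors of epithelial and mesenchymal state 13 were tested in EBC-1 and HCC827 and 14 in PC-9. In EBC-1 2 rose and 4 fell, where 23.1% of all tested genes rose and 21.6% fell, but 4 rose and 2 fell with the libraries rescaled to an equal sum. In PC-9 1 rose and 1 fell (0 and 3 rescaled), against 0.678% and 1.41% of all tested genes. In HCC827 3 rose and 7 fell (3 and 5 rescaled), against 17.2% and 20.7%. SNAI2, a repressor of epithelial genes, rose in each line at a low level, most in HCC827 (0.743 ± 0.448 to 3.05 ± 0.957 FPKM, log2 fold change 1.22, adjusted p = 0.0051, limma). Its calls in EBC-1 (0.52, adjusted p = 0.035, limma) and PC-9 (0.71, adjusted p = 0.048, limma) were lost in 6 and 10 of 15 alternatives. In EBC-1 these included leaving out any library except shSYK replicate 2 (adjusted p = 0.053 to 0.089, limma), and in PC-9 leaving out nc replicate 3 or any shSYK replicate (0.15 to 0.24). ELF3, an activator of epithelial genes, fell in EBC-1 from 32.1 ± 2.10 to 13.2 ± 1.62 FPKM (-1.22, adjusted p = 0.00018, limma) and in HCC827 from 62.9 ± 8.70 to 27.5 ± 1.99 FPKM (-1.16, adjusted p = 0.00035, limma). In PC-9 it went the same way without passing, from 54.1 to 34.8 FPKM (-0.60, adjusted p = 0.15, limma). Other listed factors did not follow 1 direction. In EBC-1 SNAI1 fell (-0.42, adjusted p = 0.017, limma) and EHF rose (0.36, adjusted p = 0.031, limma). EHF fell in HCC827 (-0.73, adjusted p = 0.0074, limma), where SNAI1 did not pass (0.25, adjusted p = 0.20, limma). Neither passed in PC-9. These calls were not followed through the alternatives. SOX2 fell in HCC827 (-1.28, adjusted p = 0.0017, limma) and in EBC-1 (-0.47, adjusted p = 0.035, limma, lost in 8 of 16 alternatives, with the omission of any library except shSYK replicate 2 among them). KLF5 fell in PC-9 (-0.72, adjusted p = 0.016, limma), and this call was lost without nc replicate 3 or any shSYK replicate (adjusted p = 0.11 to 0.14, limma). ZEB1 and ZEB2, also repressors of epithelial genes, averaged under 0.5 FPKM in every group and were not tested. ZEB1 went from 0.0878 to 0.418 FPKM in HCC827, on 24 and 113 reads over the libraries of each group. In EBC-1 it went from 0.0421 to 0.126 FPKM on 14 and 47 reads, and in PC-9 it had 4 and 5 reads. ZEB2 had 2 and 20 reads in HCC827.

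The genes whose pattern over the 18 libraries was most like that of a member, after the mean of each line had been taken off, were sought among 12672 genes by Pearson's r. For KRT5 they were OLFML3 (r = 0.989), KRT6B (0.985) and KRT3 (0.977), for KRT81 PADI3 (0.983), SDF2L1 (0.982) and SMAD3 (0.977), and for VIM FRMD6 (0.988), MAST4 (0.984) and SMS (0.980). The libraries of 1 line share its knockdown contrast, and no test was made. KRT5 had 0 reads in EBC-1 and HCC827, so its pattern varies among the PC-9 libraries only. The part of reads shared with KRT5 in KRT6B and KRT3 was not tested. OLFML3 went from 1.82 to 10.2 FPKM in PC-9, and SDF2L1 from 212 to 37.1 FPKM in EBC-1.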

How the data were processed

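RNA was extracted with TRIzol and sequenced on an Illumina HiSeq system, with alignment to hg38 according to the methods. The submitters' processing notes name CASAVA and HISAT2 and also list GRCh37, GRCh38, hg19 and hg38 without roles. The counting program, annotation release, strand setting and handling of multiply matching reads are not given in the sources used here. The authors deposited 1 table of FPKM values per cell line, normalized by them to gene length and to a denominator per library whose definition is not stated (0.883 to 1.07 times the reads on genes).

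FPKM times gene length gave whole reads for 100% of values (tolerance 0.01), from which depths and an alternative input were taken. The floor of 3 reads covers counting error only, and the 95% intervals of fold changes come from the spread between libraries in limma. Replicates were compared by chi-square per degree of freedom (2.11 to 38.7), and none was a copy of another library.

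Within each line, log2(FPKM + 1) was fitted for genes averaging 1 FPKM or more over the 6 libraries with limma 3.58.1 (R 4.3.3, variance trend, Benjamini-Hochberg threshold 0.05, two-sided), and differences between lines in 1 fit of all 18 libraries, without a gene that had 0 reads in either line. The pipeline was tested on simulated data. Fold changes of low genes are understated on this scale. Some tested genes reached the filter through 1 group, with the other group averaging under 1 FPKM. Among them were KRT6A and SNAI2 in PC-9, KRT81, SNAI2 and INA in HCC827, and KRT86 and NES in EBC-1. Shares, ratios and likenesses were computed with Python 3.11.15, numpy 2.4.6 and pandas 2.3.3, coding identities with Biopython 1.88 and word sharing on GENCODE 44 transcripts, and figures were drawn with matplotlib 3.10.9.

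The 10 genes and the lists were chosen with earlier results of these data known. All 10 are named, with at most 3 called genes of largest change per list and line, others at or near 0, near copies, SYK, markers and the 3 most alike genes. KRT13, KRT15, KRT16 and KRT23 in PC-9 were named after their values were seen. So were SNAI1 and EHF, and ITGA6 in EBC-1. Alternatives changed the pseudocount (0.1), the filter (none, 5 FPKM), the scaling, the variance trend, the input, the gene length trend, the block, the libraries in the fit and the fold required. Protein sequences were not used here.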

Additional observations from a re-analysis of the deposited data

Results flagged for a closer look

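In 5 tests of 3 genes the response to knockdown differed between cell lines, by the difference of log2 fold changes on the log2(FPKM + 1) scale in a fit of all libraries with limma. KRT7 differed by -1.02 for EBC-1 minus PC-9 and by -1.35 for EBC-1 minus HCC827. KRT81 differed by -2.86 and -2.74 in the same comparisons. KRT6A differed by 2.42 for PC-9 minus HCC827, where it was higher in the shSYK libraries of PC-9 and lower in those of HCC827. All 5 passed in each of 21 alternatives. PC-9 nc replicates 1 and 2 lay at opposite ends in scale, and the differences that involve PC-9 passed when either was left out. KRT6A shares much of its sequence with KRT6B and a small part with KRT5, both active in PC-9, and the part of shared reads was not tested. No group had the 4 libraries needed to look for a single library far from the rest of its group.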

How the results depend on the processing

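With limma, the number of keratins that passed was 4 for EBC-1, 0 for PC-9 and 3 for HCC827. It became 2 in EBC-1 and 1 in PC-9 when all 18 libraries shared 1 estimate of the spread, 2 in EBC-1 and 1 in HCC827 under a requirement of 2-fold change, and 1 in HCC827 without a filter. With each library left out in turn it ranged from 3 to 4, from 0 to 1 and from 2 to 4. Over all genes, requiring 2-fold left 409, 63 and 273 calls, and a filter at 5 FPKM left 3579 in EBC-1. The 253 calls of PC-9 became 47 without a filter, 491 with an equal sum, 505 with quantile normalization, 480 with limma-voom on recovered reads and 1511 with all 18 libraries, and 8 to 624 with a library left out (624 without nc replicate 1, 500 without nc replicate 2, 17 without nc replicate 3, and 8, 16 and 20 without shSYK replicates 1, 2 and 3).

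Rescaling to an equal sum moved the median log2 fold change of all genes in EBC-1 from 0.01 to 0.12, and its higher and lower calls went from 2876 and 2686 to 4019 and 1901. In HCC827 they went from 2066 and 2488 to 2482 and 1905. Relative to that shift KRT7 and KRT81 kept their falls in EBC-1 and KRT19 did not pass.

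The counts of keratins with a different response were 2 for EBC-1 minus PC-9 and 1 for PC-9 minus HCC827. They became 3 and 2 under quantile normalization, and also 3 and 2 without PC-9 nc replicate 1, and ranged from 2 to 3 and from 1 to 2 with a library left out.

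Signs turned for KRT8 in EBC-1 (-0.00029 with the length trend removed, -0.0687 to 0.125 with a library left out, negative without nc replicate 2) and for KRT19 in EBC-1 (0.0827 with quantile normalization). With a library left out, PC-9 values ranged from -0.368 to 0.0485 for KRT18 and from -0.313 to 0.0710 for KRT8, both positive without nc replicate 1, and from -0.132 to 0.294 for KRT19, negative without nc replicate 2. HCC827 values ranged from -0.0147 to 0.0696 for KRT18 and from -0.0690 to 0.0798 for KRT7, both negative without nc replicate 2 (-0.00535 and -0.0123) or shSYK replicate 1. The cause was not tested.

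Shares taken on recovered reads, where longer genes weigh more, differed between shSYK and nc by 0.634, 0.0669 and 0.481 percentage points for VIM for EBC-1, PC-9 and HCC827 in that order, by 14.2 and 1.07 for KRT8 plus KRT18 in EBC-1 and HCC827, and by 3.47 and -0.171 for KRT5, KRT6A, KRT14 and KRT17 in PC-9 and HCC827. The type II to type I ratio differed by -0.546, -0.0979 and 0.254. With all keratins in the sum, KRT8 plus KRT18 in PC-9 differed by -1.88 points and KRT5, KRT6A, KRT14 and KRT17 together by 2.64 points.

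Replicate numbers paired no line by the correlation of deviations (-0.22 to 0.33 for equal numbers), and not every library correlated best with its own number. With the replicate block 3 keratins passed for EBC-1, where KRT19 did not (adjusted p = 0.081), 0 for PC-9 and 3 for HCC827, with 4326, 172 and 4111 calls over all genes. A gene averaging under 1 FPKM over the 6 libraries of a line could not be tested in that line. Of 17 tested fold changes of the 10 genes, 4 kept direction and side of the threshold under every alternative.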

Other observations

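The next values were chosen after they had been seen. HCC827 held many reads on keratin pseudogenes that the other lines did not. KRT16P1 stood at 235, 256 and 237 FPKM in HCC827 nc and at 86.9, 95.1 and 119.7 FPKM in shSYK libraries, without overlap, while its mean was at most 0.268 FPKM in any group of EBC-1 and PC-9. It fell by 1.28 on the log2 scale (adjusted p = 0.00035, limma). KRT16P3 went from 28.4 ± 1.96 to 12.2 ± 1.87 FPKM in HCC827 (log2 fold change -1.16, adjusted p = 0.00036, limma). The parent gene KRT16, a type I keratin usually found with KRT6A, stood at only 0.379 FPKM in HCC827 nc cells, against 30.8 FPKM in PC-9. HCC827 is the line with KRT6A, which fell there too, and whether these reads come from the pseudogenes or from a keratin of like sequence was not tested.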
